A study of Mus musculus with 96 samples.

Results

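Expression at 11 to 14 h after serum was compared with expression at 7 to 10 h in primary mouse embryonic fibroblasts (MEFs), the hours in which serum-fed fibroblasts approach the start of DNA synthesis. The libraries were chosen by their labelled Cycle and hour alone. They make up 21 of the 96 labelled samples, with 10 on the later side and 11 on the earlier side. The cells were of the CF-1 strain and were taken at embryonic day 13. All were held for 36 h in medium with 0.5% fetal calf serum and were then moved to 20% serum at 0 h. The RNA-seq time course was run as Cycle 1 and Cycle 2, and each hour was sequenced once per Cycle. Cycle 1 gave 7 libraries at 7 to 10 h and 6 at 11 to 14 h, sampled every 0.5 h without 12.5 h, whose column was not used here because its name is unclear. Cycle 2 gave 4 hourly libraries in each window. The labels do not say which libraries came from separate cultures, so the hours of a window served as its repeats. The spread of a window therefore holds drift over its hours, neighbouring hours are not independent, and p-values measure the spread between these libraries. The labels do not name separate embryos for the Cycles. According to the authors, starvation and refeeding need not synchronise all cells, and the time courses of both Cycles may not have started together. They shifted the Cycles against each other gene by gene. No shift was applied here, so the same hour need not be the same stage of the cell cycle in both Cycles.

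A fibroblast starved of serum rests in G0 with its retinoblastoma family proteins bound to E2F factors at the promoters of S phase genes. Serum brings up cyclin D, cyclin D and cyclin E kinases phosphorylate the retinoblastoma proteins, and the freed E2F factors switch on cyclin E, the genes that license replication origins, the fork machinery and the enzymes that make deoxynucleotides. Genes of G2 and mitosis are held down by the same repressor family through other promoter elements and come up later in the cycle. Growth factor and cytokine genes that serum induces in the first hours usually subside over the same period.

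The cells carried fibroblast RNA throughout. All 14 fibroblast markers were measured, and with each library scaled to 10000000 reads their summed value was 243100 to 278900 at 7 to 10 h and 202900 to 239800 at 11 to 14 h in Cycle 1, lower in every later library, and 219500 to 263900 and 210000 to 229400 in Cycle 2, where the windows overlapped. Markers of other cells were also detected. The summed value of 10 macrophage markers was 941 to 1472 against 884 to 1190 in Cycle 1 and 3064 to 3669 against 3029 to 3102 in Cycle 2, the earlier window first. That of 8 epithelial markers was lower in every later library of both Cycles, with 515.5 to 996 against 435 to 514 and 292 to 339 against 229.6 to 279. The sum of the 5 neural markers measured was 3898 to 4651 against 3098 to 3513 in Cycle 1, apart, and 2307 to 3036 against 2107 to 2375 in Cycle 2, and that of 8 endothelial markers overlapped in both Cycles at 165 to 275. The part of other cells in the falls described here was not tested. The libraries held 5249462 to 13423428 recovered reads, median 11152846, lowest at 7 h of Cycle 2 and at 12 h of Cycle 1. In bulk RNA, fewer cells of a type and less RNA per cell cannot be told apart.

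The genes that move in these hours are first shown by their promoters. Promoters were taken from RefSeq on GRCm38.p6, a newer build than that of the expression table, and run from 250 bases before to 50 after each annotated start. The table holds 32851 promoters and matched 12323 of the 15895 genes, or 77.5%. That is under 80%, so shares over the whole sets of genes that rose or fell are void as a check and are not used. In lists with at least 80% of members matched, letters were searched on both strands. A match describes the letters and is no evidence that a factor is bound.

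The letters of E2F sites (TTTCCCGC, TTTCGCGC, TTTGCCGC or TTTGGCGC) stood in 7 of 26 promoters of replication fork genes, or 26.9%, against 2.26% of all promoters in the table and 3.58% of those of the genes tested. They stood in 4 of 16 promoters of genes that duplicate chromatin and in 2 of 33 promoters of genes of G2 and mitosis (6.06%). In the nucleotide and folate list, where 7 genes rose, they stood in only 1 of 26 promoters (3.85%). They stood in 4 of 35 promoters of ribosome biogenesis genes (11.4%), of which none rose or fell. Among interferon response genes, of which 5 fell and none rose, they stood in 3 of 22 promoters (13.6%). The letters of the cell cycle genes homology region, called CHR (TTTGAA or TTCGAA), showed the other order. They were found in 27 of 33 promoters of G2 and mitosis genes (81.8%), in 3 of 26 fork promoters (11.5%), in 19.2% of all promoters and in 2211 of the 15604 of the genes tested. CCAAT, the letters that the factor NF-Y reads, stood in 28 of 33 promoters of G2 and mitosis genes (84.8%), in 13 of 16 promoters of genes that duplicate chromatin (81.2%), in 16 of 21 promoters of clock genes (76.2%), in 11 of 26 fork promoters (42.3%), in 37.4% of all and in 37.0% of those of the genes tested. CCAAT also stood in 18 of 26 promoters of Atf4 and ER stress genes (69.2%), a list in which no gene rose or fell. The 2 E2F forms in the Mcm5 promoter overlap each other. CRE (TGACGTCA), E box (CACGTG) and D box letters (TTATGTAA or TTACGTAA) were searched as well and stood in 1.79%, 7.15% and 1.06% of all promoters. In the 21 promoters of clock genes E box letters stood in 6 (28.6%, against 9.45% of those of the genes tested) and D box letters in 1.

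Promoters of 3 S phase genes that rose in both Cycles are printed with their E2F letters in capitals, from 5′ to 3′ on the strand of the gene.
Cdc6 (chr11:98907901-98908200, plus strand): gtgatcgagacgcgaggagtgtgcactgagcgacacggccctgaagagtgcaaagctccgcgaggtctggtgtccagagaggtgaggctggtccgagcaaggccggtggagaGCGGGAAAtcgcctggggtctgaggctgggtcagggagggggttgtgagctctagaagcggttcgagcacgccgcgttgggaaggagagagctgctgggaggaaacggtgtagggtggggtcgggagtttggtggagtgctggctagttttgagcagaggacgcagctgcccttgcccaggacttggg
Mcm5 (chr8:75109259-75109558, plus strand): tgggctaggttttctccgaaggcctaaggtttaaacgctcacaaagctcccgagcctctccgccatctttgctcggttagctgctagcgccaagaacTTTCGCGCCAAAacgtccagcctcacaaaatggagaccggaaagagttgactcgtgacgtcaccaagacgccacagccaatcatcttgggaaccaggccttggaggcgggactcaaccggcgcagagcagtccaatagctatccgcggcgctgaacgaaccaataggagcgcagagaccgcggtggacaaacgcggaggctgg
Clspn (chr4:126556730-126557029, plus strand): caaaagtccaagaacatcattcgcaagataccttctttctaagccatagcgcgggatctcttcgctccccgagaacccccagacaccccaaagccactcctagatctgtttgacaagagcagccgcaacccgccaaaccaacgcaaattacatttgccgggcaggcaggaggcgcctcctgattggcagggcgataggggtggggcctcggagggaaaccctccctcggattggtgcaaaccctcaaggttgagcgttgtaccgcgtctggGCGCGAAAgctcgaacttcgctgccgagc
The E2F letters begin 138 bases before the annotated start in Cdc6 and 21 bases after it in Clspn. The windows of Ccne1, E2f1 and Tk1, which also rose, hold none of these letters.

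Promoters of 3 genes of G2 and mitosis, which rose mainly in Cycle 1, are printed with CHR and CCAAT letters in capitals on either strand, so that CCAAT read from the other strand appears as ATTGG and TTTGAA as TTCAAA.
Cdk1 (chr10:69352863-69353162, minus strand): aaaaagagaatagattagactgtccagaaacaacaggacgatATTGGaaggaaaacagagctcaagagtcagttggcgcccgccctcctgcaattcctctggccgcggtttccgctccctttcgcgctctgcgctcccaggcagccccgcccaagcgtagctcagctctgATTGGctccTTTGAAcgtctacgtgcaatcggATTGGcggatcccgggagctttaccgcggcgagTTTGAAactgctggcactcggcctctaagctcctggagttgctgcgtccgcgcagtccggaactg
Top2a (chr11:99024140-99024439, minus strand): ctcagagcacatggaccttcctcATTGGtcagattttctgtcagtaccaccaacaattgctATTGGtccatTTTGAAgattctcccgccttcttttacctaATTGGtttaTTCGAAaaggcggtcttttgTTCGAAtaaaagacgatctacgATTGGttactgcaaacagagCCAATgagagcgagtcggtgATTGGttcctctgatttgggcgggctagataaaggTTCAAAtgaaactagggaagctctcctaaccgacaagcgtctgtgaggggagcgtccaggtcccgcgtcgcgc
Bub1 (chr2:127831810-127832109, minus strand): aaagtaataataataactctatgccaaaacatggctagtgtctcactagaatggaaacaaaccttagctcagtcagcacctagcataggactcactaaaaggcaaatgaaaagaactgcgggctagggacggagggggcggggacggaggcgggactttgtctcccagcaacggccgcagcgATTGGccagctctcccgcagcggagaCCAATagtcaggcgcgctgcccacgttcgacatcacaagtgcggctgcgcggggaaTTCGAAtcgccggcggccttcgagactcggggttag
The Cdk1 promoter holds 2 CHR forms and 3 CCAAT forms, and it is also 1 of the 2 promoters of this list with E2F letters. The Top2a promoter holds 4 CHR forms and 6 CCAAT forms.

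Genes that fell include targets of serum signalling, and the letters of AP-1, the Fos and Jun factor (TGANTCA), are shown in capitals in promoters of 2 of them. AP-1 letters stood in 7.81% of all promoters and in 5.77% of those of the genes tested. They stood in 0 of 8 promoters of Erk feedback genes, in 3 of 22 of interferon response genes (13.6%) and in 2 of 21 of quiescence and FoxO target genes (9.52%). The 2 promoters printed are examples. Fewer than 80% of the cytokine, protease and serum early genes matched a promoter, so no share is given for those lists.
Il11 (chr7:4778092-4778391, minus strand): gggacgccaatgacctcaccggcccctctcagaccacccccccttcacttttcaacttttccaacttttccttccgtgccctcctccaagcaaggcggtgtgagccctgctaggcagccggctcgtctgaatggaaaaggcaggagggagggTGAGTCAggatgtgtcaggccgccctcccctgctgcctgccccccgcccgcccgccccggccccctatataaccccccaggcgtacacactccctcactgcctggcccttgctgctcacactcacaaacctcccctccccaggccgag
Mmp10 (chr9:7502092-7502391, plus strand): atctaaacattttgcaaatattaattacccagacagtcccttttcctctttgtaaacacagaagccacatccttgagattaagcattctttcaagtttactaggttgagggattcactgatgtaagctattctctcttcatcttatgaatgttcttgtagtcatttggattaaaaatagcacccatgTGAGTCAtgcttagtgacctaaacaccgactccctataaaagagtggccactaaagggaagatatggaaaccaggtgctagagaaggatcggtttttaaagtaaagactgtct
The Il11 promoter shown is 1 of 2 in the table, and the other holds no AP-1 letters. The Areg window holds none either.

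Between 7 to 10 h and 11 to 14 h, 730 of 15895 genes rose (4.59%) and 731 fell (4.6%). The measure was the difference in log2(value + 1) between the windows within each Cycle, averaged over both Cycles, and a call needed an adjusted p under 0.05 from limma with Benjamini-Hochberg adjustment over all genes, an average difference of at least 0.5 and the same sign in both Cycles. The median difference over all genes was 0.036. At a difference of 1 or more, which is a doubling on this scale, 109 genes rose (0.686%) and 170 fell (1.07%). In 569 genes (3.58%) every later library lay above every earlier library of its Cycle, and in 339 (2.13%) every later library lay below. Of the called genes, 282 risers and 204 fallers were apart in this way. The changes were larger in Cycle 1 for 523 of the 730 risers, with median differences of 0.84 in Cycle 1 and 0.57 in Cycle 2, and for 436 of the 731 fallers, with medians of -0.81 and -0.72. Of the called genes, 84 risers and 193 fallers had a mean value under 10. Rescaling each library by the median ratio gave 598 risers (3.76%) and 856 fallers (5.39%).

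**Figure D1:**
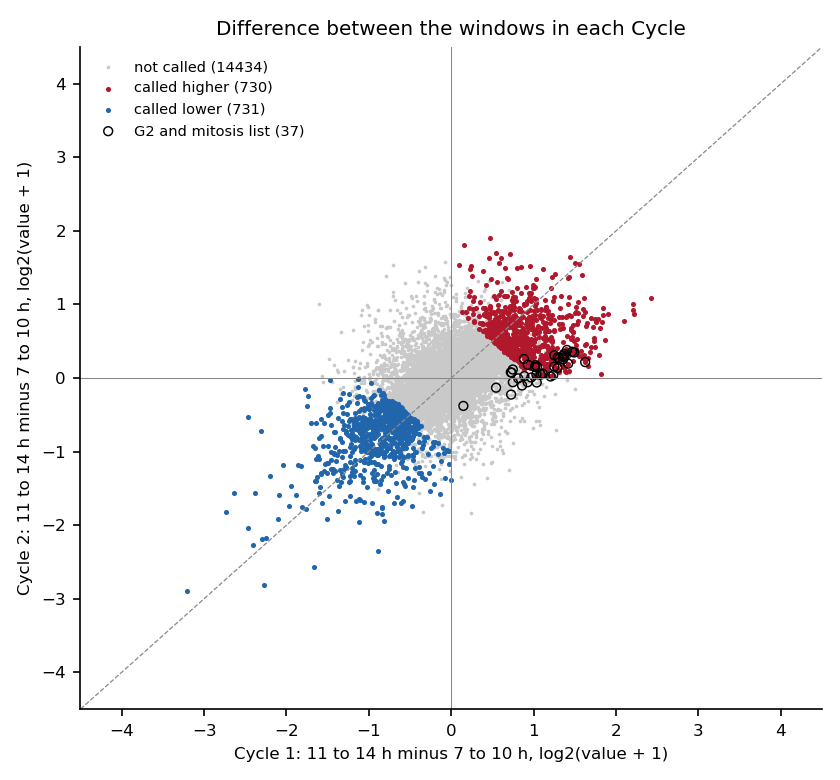
Difference in log2(value + 1) between 11 to 14 h and 7 to 10 h in Cycle 1 (horizontal axis) and in Cycle 2 (vertical axis), 1 point per gene for the 15895 genes, with the 730 called higher and the 731 called lower in colour. Rings mark the 37 genes of G2 and mitosis, which lie to the right of 0 at Cycle 2 differences of -0.38 to 0.38.

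These calls rest on treating hours as repeats. When each Cycle gave a single difference per gene, so that only the 2 Cycles were repeats, no gene passed in either direction in limma with the same settings, with 757 risers and 904 fallers at an unadjusted p under 0.05 and a smallest adjusted p of 0.123. With genes of mean value at least 10 only and limma's trend and robust options on, a setting added after the data were seen, the same design gave 484 risers (3.81% of 12719 genes) and 503 fallers (3.95%), of which 479 and 489 were among those of the main test.

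Of 10 genes for the cyclins and kinases that carry a cell into S phase, 4 rose and none fell, with a median difference of 0.38, and in the filtered design with 1 difference per Cycle 2 rose. They were cyclin E genes Ccne1 and Ccne2, their kinase Cdk2 and Ccna2, the cyclin of S phase and G2. Ccne1 (chromosome 7, 38883003 to 38892553, minus strand, NCBIM37) read 264 to 632 (median 437) in the 7 libraries at 7 to 10 h and 833 to 1853 (median 1399) in the 6 at 11 to 14 h of Cycle 1. In Cycle 2 it read 284, 344, 433 and 541 from 7 to 10 h and 608, 717, 818 and 878 from 11 to 14 h. The windows were apart in both Cycles, and the value climbed at each successive hour of Cycle 2. Ccne1 rose by 1.27 ± 0.19 (SE, n = 10 and 11 libraries, adjusted p = 0.000153 from limma), or 2.41-fold. Ccne2 rose by 1.03 ± 0.14, Ccna2 by 0.73 ± 0.14 and Cdk2 by 0.65 ± 0.086. The Ccna2 difference was 1.21 in Cycle 1 and 0.25 in Cycle 2. Differences of 0.33 for Ccnd1, 0.43 for Ccnd3, 0.29 for Cdk4 and 0.20 for Cdc25a, the phosphatase that activates Cdk2, stayed under the minimum of 0.5.

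Among 7 Cdk inhibitors none rose and 1 fell (14.3%, against 4.6% of all genes). That was Cdkn1c, which encodes p57, with 997 to 1920 (median 1182) in the 7 libraries at 7 to 10 h and 606 to 856 (median 767) in the 6 at 11 to 14 h of Cycle 1 and 339, 298, 264 and 238 from 7 to 10 h and 238, 213, 218 and 202 from 11 to 14 h in Cycle 2. The Cycle 1 windows were apart, and those of Cycle 2 overlapped at a level several times lower. It fell by 0.56 ± 0.11 (SE, adjusted p = 0.000889 from limma). Cdkn1a and Cdkn1b, the genes of p21 and p27, had differences of -0.001 and 0.11. Cdkn2c, the gene of p18, had 1.40 in Cycle 1 and -0.023 in Cycle 2 and was not called because the signs differ.

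Of 18 E2f, Dp, pocket protein and MuvB genes, 9 rose and none fell, with a median of 0.38. The risers were the activator genes E2f1 and E2f2, the late repressor genes E2f7 and E2f8, Mybl2, Tfdp2, the pocket protein gene Rbl1, and Lin9 and Lin54 of the MuvB core. E2f1 read 228 to 442 (median 322) in the 7 libraries at 7 to 10 h and 494 to 851 (median 728) in the 6 at 11 to 14 h of Cycle 1, and 198, 239, 292 and 324 from 7 to 10 h and 400.1, 445, 473 and 505 from 11 to 14 h in Cycle 2. No early value reached a late one within either Cycle, and the rise was 0.95 ± 0.13 (SE, adjusted p = 9.66e-05 from limma). Mybl2, whose product B-Myb joins the MuvB core to activate late cell cycle genes, rose by 1.61 ± 0.21, the largest change of the list, with 2.21 in Cycle 1 and 1.00 in Cycle 2. E2f7 rose by 0.95 ± 0.15 and E2f8 by 0.85 ± 0.13. The repressor genes E2f4 and E2f5, active in resting cells, had differences of -0.16 and -0.12, and Rb1 one of 0.13.

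Origin licensing and firing genes rose in 18 of 26 cases, none fell, and the median was 0.66. In the filtered design with 1 difference per Cycle 11 rose. Licensing loads the Mcm2 to Mcm7 helicase onto origins through Orc, Cdc6 and Cdt1, and firing adds Cdc45, Gins and further factors under the kinases Cdc7 and Cdk2. Mcm10, a firing factor, read 71.3 to 171 (median 106) in the 7 libraries at 7 to 10 h and 255 to 522 (median 381) in the 6 at 11 to 14 h of Cycle 1 and 150.5, 152, 194 and 214 from 7 to 10 h and 287, 292, 339.5 and 369.7 from 11 to 14 h in Cycle 2. Cdc6, the loader whose promoter is printed above, read 76.6 to 290.2 (median 193) in the 7 libraries at 7 to 10 h and 381 to 686 (median 612) in the 6 at 11 to 14 h of Cycle 1 and 106, 125, 196 and 212 from 7 to 10 h and 263, 313, 349 and 396 from 11 to 14 h in Cycle 2. For both genes the late libraries were all above the early ones of the same Cycle. Mcm10 rose by 1.35 ± 0.16 (SE, adjusted p = 7.23e-05 from limma) and Cdc6 by 1.35 ± 0.23 (SE, adjusted p = 0.000278). All 6 subunit genes of the Mcm2 to Mcm7 ring rose, from 0.65 ± 0.072 for Mcm6 to 0.95 ± 0.14 for Mcm5. Gmnn, the gene of geminin, which binds Cdt1 and blocks relicensing, rose by 1.20 ± 0.19. Cdt1 itself had 0.45, under the minimum, although its windows were apart in both Cycles. Within the origin recognition complex Orc1 and Orc6 rose by 0.66 and 0.57, while Orc2, Orc3, Orc4 and Orc5 had differences of 0.050 to 0.17.

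The replication fork list rose most widely, with 22 of 26 genes up, none down, a median of 0.75 and 19 of the 22 apart in both Cycles. Clspn, the gene of claspin, which links the fork to checkpoint kinase Chk1, read 83.0 to 244 (median 156) in the 7 libraries at 7 to 10 h and 393 to 793 (median 610.5) in the 6 at 11 to 14 h of Cycle 1 and 248, 248, 298 and 315 from 7 to 10 h and 421, 496, 502 and 614 from 11 to 14 h in Cycle 2. It rose by 1.38 ± 0.20 (SE, adjusted p = 0.000119 from limma), with every late library above every early one. Lig1, the ligase that seals Okazaki fragments, rose by 1.14 ± 0.15. Pole, the catalytic subunit of the leading strand polymerase, rose by 1.12 ± 0.16. All 4 subunit genes of polymerase alpha and primase rose, by 0.53 for Prim2, 0.73 for Pola1, 0.91 for Pola2 and 0.93 for Prim1. Pcna, the sliding clamp, rose by 0.67 ± 0.10. Rfc2, Rfc3, Rfc4 and Rfc5 of the clamp loader rose by 0.59 to 0.78, and the remaining subunit gene Rfc1 had 0.41 with windows apart in both Cycles. The other genes under the minimum were Rpa3 with 0.40, Pold3 with 0.42 and Tipin with 0.48.

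Nucleotide supply was divided. Of 27 genes for nucleotide and folate metabolism 7 rose and none fell, with a median of 0.36, and 3 rose in the filtered design with 1 difference per Cycle. Tk1, thymidine kinase of the salvage route, had the largest rise of any gene tested. It read 27.1 to 66.5 (median 50.0) in the 7 libraries at 7 to 10 h and 112 to 471 (median 266) in the 6 at 11 to 14 h of Cycle 1 and 92.4, 105, 115 and 127 from 7 to 10 h and 175, 200, 263 and 321 from 11 to 14 h in Cycle 2, apart in both. Its rise was 1.75 ± 0.24 (SE, 95% interval 1.24 to 2.26, adjusted p = 0.00011 from limma), or 3.37-fold. Other risers act on deoxynucleotides. They included Rrm2 and Rrm1, the subunits of ribonucleotide reductase, with 1.02 ± 0.14 and 0.70 ± 0.11, and Dck, Tyms and Dut with 1.02, 0.71 and 0.54. Purine and pyrimidine synthesis genes that serve RNA as well stayed under the minimum, from -0.006 for Impdh1 to 0.44 for Paics, and 14 of the 20 genes not called had an adjusted p under 0.05 at these small differences.

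Genes that copy chromatin behind the fork rose in 11 of 14 cases, with a median of 0.60 and none lower. Chaf1b and Chaf1a, subunits of the chromatin assembly factor that deposits new histones, rose by 1.29 ± 0.18 and 0.91 ± 0.13. Chaf1b read 162 to 376 (median 247) in the 7 libraries at 7 to 10 h and 465.9 to 1106 (median 754) in the 6 at 11 to 14 h of Cycle 1 and 183, 178, 227 and 282 from 7 to 10 h and 321, 441, 496 and 525.9 from 11 to 14 h in Cycle 2. Its windows did not overlap in either Cycle. Uhrf1, which guides the maintenance methylase to hemimethylated DNA, rose by 1.22 ± 0.18, and Dnmt1, that methylase, by 0.55 ± 0.076. Hells, a remodelling helicase, rose by 0.88 ± 0.15 and had the larger difference in Cycle 2 (1.01 against 0.74 in Cycle 1). Asf1a, H2afx and H2afz were not called.

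Repair and checkpoint genes rose in 19 of 30 cases, with a median of 0.71 and none lower, and in 12 cases in the filtered design with 1 difference per Cycle. The largest were Rad54b with 1.26 ± 0.19, Brca1 with 1.26 ± 0.21, Exo1 with 1.26 ± 0.17, Rad51ap1 with 1.24 ± 0.20 and Bard1, the partner of Brca1, with 1.21 ± 0.15. Brca1 read 34.0 to 154 (median 94.5) in the 7 libraries at 7 to 10 h and 210.1 to 342 (median 274) in the 6 at 11 to 14 h of Cycle 1 and 135, 123, 171 and 166 from 7 to 10 h and 257, 264, 269 and 315 from 11 to 14 h in Cycle 2, apart in both Cycles. Other risers of homologous recombination and the Fanconi pathway included Brip1 with 1.21, Fancd2 with 0.96 and Brca2 with 0.78. Msh6, a mismatch repair gene, rose by 0.55. Genes of the end joining complex differed by less, with 0.10 for Xrcc5, 0.39 for Xrcc6 and 0.50 for Prkdc, and the apical kinase gene Atr had 0.20.

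**Figure D2:**
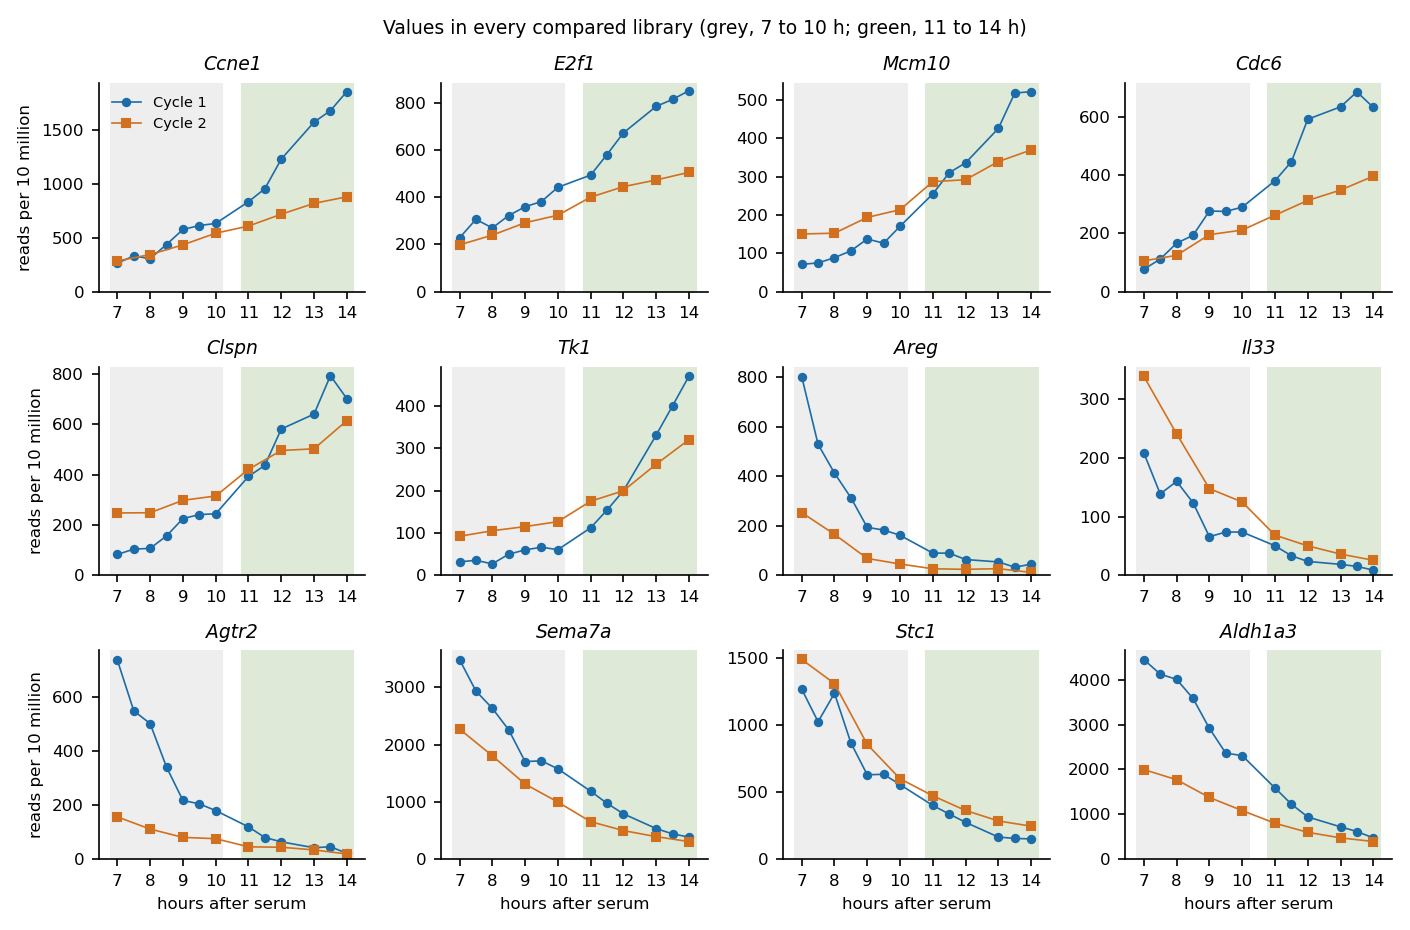
Value per library (reads scaled to 10000000 per library) against hours after serum for 12 genes, 6 that rose and 6 that fell, with Cycle 1 and Cycle 2 as separate lines. In each of the 12 genes the 7 to 10 h and 11 to 14 h values of a Cycle do not overlap.

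Genes of G2 and mitosis divided the Cycles. Of 37 measured, 24 rose and none fell on the average of both Cycles, with a median of 0.58. The median difference was 1.04 in Cycle 1 and 0.13 in Cycle 2. Tested in Cycle 1 alone 36 of 37 rose, where 968 of all genes did (6.09%), and in Cycle 2 alone 0 of 37, where 212 of all genes did (1.33%). All counts given for 1 Cycle alone test the difference of that Cycle within the joint fit, whose spread comes from all 21 libraries. Of these, 13 are of Cycle 1 and 8 of Cycle 2, so drift within either Cycle enters both tests. All 37 had the larger difference in Cycle 1, and in all 37 the test of the difference between the Cycles gave an unadjusted p under 0.05. Adjusted over all genes these p-values were 0.211 to 0.508 in limma, so no member differed between the Cycles at the threshold. At 7 to 10 h all 37 were already higher in Cycle 2 than in Cycle 1, by a median of 1.73 in log2.

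Cdk1, the mitotic kinase, read 490.5 to 636 (median 531) in the 7 libraries at 7 to 10 h and 778 to 2375 (median 1382) in the 6 at 11 to 14 h of Cycle 1. In Cycle 2 it read 1476, 1463, 1349 and 1453 from 7 to 10 h and 1387, 1519, 1630 and 1791 from 11 to 14 h. The Cycle 1 windows were apart, the Cycle 2 windows overlapped, and the early values of Cycle 2 lay near the median of the late values of Cycle 1. Cdk1 rose by 0.71 ± 0.15 (SE, adjusted p = 0.00177 from limma), from 1.29 in Cycle 1 and 0.14 in Cycle 2. Aurkb, the kinase of the chromosomal passenger complex, rose by 0.92 ± 0.18 with 1.62 and 0.22, the widest gap between the Cycles in the list. Ncapg and Ncaph, condensin subunits, rose by 0.92 and 0.91. Top2a, the topoisomerase that untangles replicated chromosomes, read 385 to 680.2 (median 531) in the 7 libraries at 7 to 10 h and 931 to 2104 (median 1412) in the 6 at 11 to 14 h of Cycle 1 and 1608, 1531, 1552 and 1474 from 7 to 10 h and 1765, 1994, 2008 and 2296 from 11 to 14 h in Cycle 2. Its windows were apart in both Cycles, and it rose by 0.89 ± 0.14. Ccnb1, cyclin B1, was not called. It read 53.6 to 74.6 (median 58.5) in the 7 libraries at 7 to 10 h and 73.4 to 209 (median 103) in the 6 at 11 to 14 h of Cycle 1 and 269, 238, 221 and 222 from 7 to 10 h and 202, 225, 212 and 245 from 11 to 14 h in Cycle 2, with overlap in both, and differences of 0.86 and -0.10. In the filtered design with 1 difference per Cycle none of the 37 rose, where 21 of the 26 fork genes did.

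Across all genes 0 differed between the Cycles (0%), with 1495 of 15895 (9.41%) at an unadjusted p under 0.05 and a smallest adjusted p of 0.211 in limma. The count test of edgeR on the recovered reads called 28 (0.176%), with 1494 at an unadjusted p under 0.05. The 3 genes with the smallest p were Adcyap1, Srsf5 and Hmox1. Hmox1, heme oxygenase, read 3788 to 4713 (median 3946) in the 7 libraries at 7 to 10 h and 4351 to 4716 (median 4441) in the 6 at 11 to 14 h of Cycle 1 and 5644, 5120, 4775 and 4940 from 7 to 10 h and 4430, 4124, 3988 and 4022 from 11 to 14 h in Cycle 2, with differences of 0.15 in Cycle 1 and -0.30 in Cycle 2. Srsf5, a splicing factor, had the opposite signs, -0.25 and 0.17. Adcyap1 was under 7 in all 21 libraries and 0 in the 4 early libraries of Cycle 2.

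The S phase lists also held more calls in Cycle 1. In Cycle 1 alone 21 of 26 licensing genes, 25 of 26 fork genes and 21 of 30 repair genes rose, and in Cycle 2 alone 6, 9 and 3 did. Over all genes 968 rose in Cycle 1 alone (6.09%) and 212 in Cycle 2 alone (1.33%), which has fewer libraries. The median differences were 0.78 and 0.53 for licensing, 0.93 and 0.53 for the fork and 0.85 and 0.45 for repair, Cycle 1 first. At 7 to 10 h the median difference of Cycle 2 from Cycle 1 was 0.03 for licensing, -0.06 for the fork and 0.21 for repair, with 13 of 26, 10 of 26 and 23 of 30 members higher in Cycle 2.

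**Figure D3:**
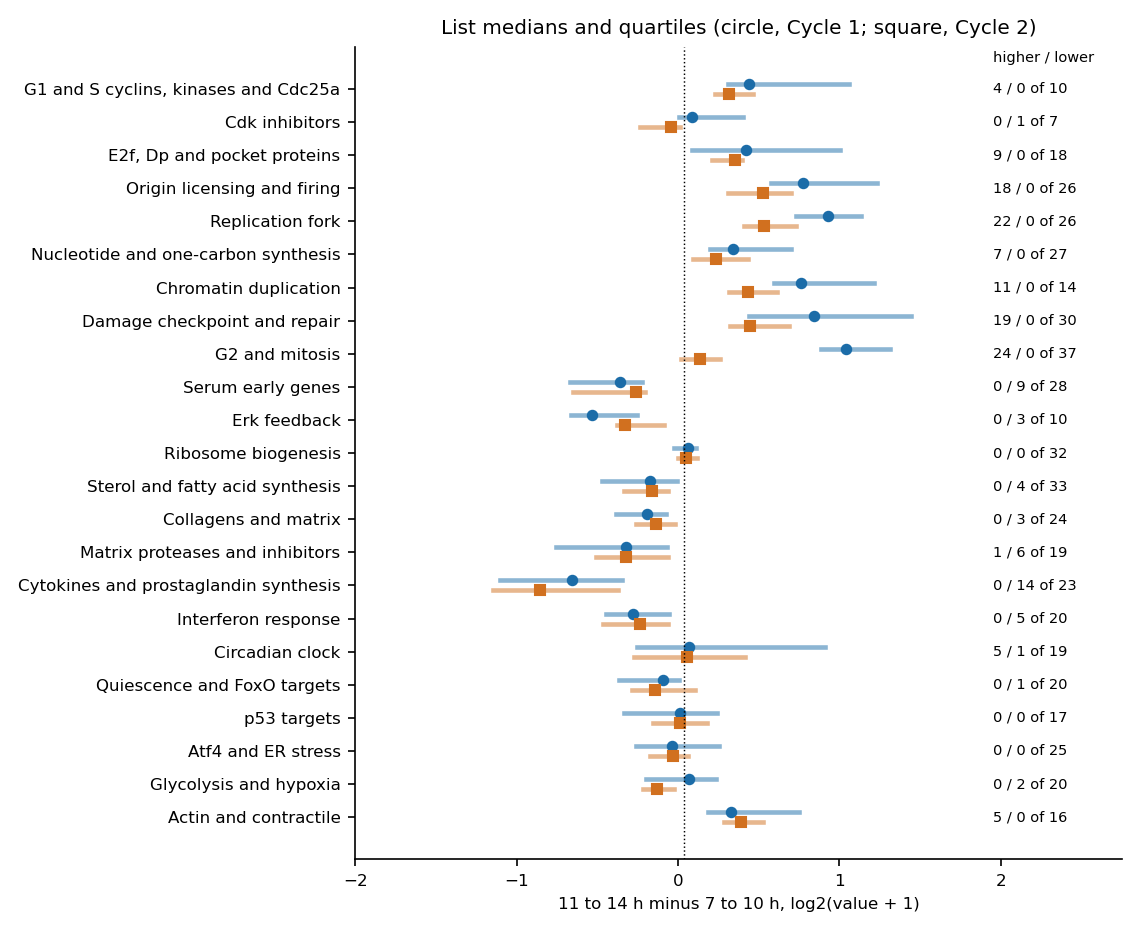
Median and quartile bar of the difference in log2(value + 1) between 11 to 14 h and 7 to 10 h for each gene list. Each Cycle is drawn as a separate mark over the measured members, with counts given as text. By the calls on the average of both Cycles, the fork, licensing and repair lists hold no gene that fell. The cytokine list holds 14 that fell and none that rose.

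The 12 largest rises among called genes with a mean of at least 50 and windows apart in both Cycles, from all genes tested, included Tk1, Mybl2, Clspn, Mcm10 and Cdc6, given above. Fbxo5, which encodes the inhibitor Emi1 of the anaphase-promoting complex, rose by 1.40 ± 0.20, and 2810417H13Rik, now called Pclaf, a Pcna binding factor, by 1.43 ± 0.20. Lrr1, a substrate receptor that acts in unloading the replicative helicase, rose by 1.29 ± 0.20, and Wdr62, of the spindle pole, by 1.29 ± 0.21. The other 3 are not known as cell cycle genes. Coch, a secreted matrix protein, read 34.0 to 91.1 (median 65.9) in the 7 libraries at 7 to 10 h and 129 to 237 (median 194) in the 6 at 11 to 14 h of Cycle 1 and 11.4, 31.1, 46.7 and 45.8 from 7 to 10 h and 60.0, 80.3, 119.6 and 107 from 11 to 14 h in Cycle 2 and rose by 1.55 ± 0.24. Sdpr, now called Cavin2, a caveolar coat gene, rose by 1.40 ± 0.19. Plxnc1, which encodes a semaphorin receptor, read 18.3 to 49.3 (median 40.7) in the 7 libraries at 7 to 10 h and 79.8 to 124 (median 96.8) in the 6 at 11 to 14 h of Cycle 1 and 64.8, 49.0, 68.2 and 66.8 from 7 to 10 h and 124, 152, 178 and 196 from 11 to 14 h in Cycle 2 and rose by 1.39 ± 0.14. Adjusted p-values of these 12 were 5.96e-05 to 0.000278 from limma.

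The 12 largest falls were taken under the same limits, a call, a mean of at least 50 and windows apart in both Cycles. Areg, amphiregulin, a ligand of the Egf receptor, read 162 to 802 (median 314) in the 7 libraries at 7 to 10 h and 33.2 to 89.9 (median 59.0) in the 6 at 11 to 14 h of Cycle 1. In Cycle 2 it read 253, 166, 68.2 and 45.8 from 7 to 10 h and 26.6, 24.3, 27.0 and 12.0 from 11 to 14 h. The late values were all under the early ones of the same Cycle, and Areg fell by 2.34 ± 0.34 on the log2 scale (SE, adjusted p = 0.000133 from limma), to 0.198 of the early level. Of the Egf receptor ligands in the named genes and lists, Areg, Btc (betacellulin), Ereg (epiregulin) and Hbegf all fell and were apart in both Cycles, with differences of -2.34, -1.85, -1.33 and -0.58. Il33, an alarmin of the interleukin 1 family, read 65.9 to 209 (median 124) in the 7 libraries at 7 to 10 h and 8.98 to 50.5 (median 21.2) in the 6 at 11 to 14 h of Cycle 1 and 339, 241, 148 and 125 from 7 to 10 h and 68.5, 50.3, 36.3 and 25.7 from 11 to 14 h in Cycle 2. It fell by 2.24 ± 0.30 (SE, adjusted p = 9.62e-05).

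Agtr2, an angiotensin receptor, read 179.5 to 736 (median 341) in the 7 libraries at 7 to 10 h and 21.3 to 119 (median 54.8) in the 6 at 11 to 14 h of Cycle 1 and 156, 111, 80.4 and 75.4 from 7 to 10 h and 45.4, 43.8, 34.0 and 18.9 from 11 to 14 h in Cycle 2, and fell by 2.10 ± 0.31. Sema7a, a membrane-anchored semaphorin that is known to bind plexin C1, read 1577 to 3487 (median 2259) in the 7 libraries at 7 to 10 h and 385 to 1186 (median 662) in the 6 at 11 to 14 h of Cycle 1 and 2273, 1806, 1311 and 997 from 7 to 10 h and 654, 498, 392 and 305 from 11 to 14 h in Cycle 2. It fell by 1.77 ± 0.23, while Plxnc1, the gene of that receptor, rose. Stc1, the hormone stanniocalcin, read 556 to 1268 (median 868) in the 7 libraries at 7 to 10 h and 150.4 to 400 (median 219) in the 6 at 11 to 14 h of Cycle 1 and 1490, 1310, 855 and 599.5 from 7 to 10 h and 472, 363, 285 and 245 from 11 to 14 h in Cycle 2, and fell by 1.74 ± 0.23. In all 3 genes the Cycle 2 value was lower at each successive hour. The remaining named falls were Dmp1, a matrix phosphoprotein (-1.84), Aldh1a3, which makes retinoic acid (-1.71), Ndrg1, a gene known for its response to hypoxia (-1.54), Tac1, the precursor of substance P (-1.52), 1600029D21Rik, now called Plet1 (-1.55), and 1810011O10Rik (-1.58). All 12 falls were apart in both Cycles, with adjusted p-values of 5.96e-05 to 0.000188 from limma.

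Serum early genes fell in 9 of 28 cases and none rose, with a median of -0.31. These are the genes that serum switches on within the first hours. The fallers were Areg, Ereg and Hbegf, the orphan receptor genes Nr4a1, Nr4a2 and Nr4a3, and the factors Egr3, Fosb and Atf3. Nr4a2 read 194 to 256 (median 216) in the 7 libraries at 7 to 10 h and 68.5 to 162 (median 95.0) in the 6 at 11 to 14 h of Cycle 1 and 272, 269, 195 and 136 from 7 to 10 h and 129.8, 104, 94.5 and 63.5 from 11 to 14 h in Cycle 2, apart in both, and fell by 1.10 ± 0.16 (SE, adjusted p = 0.000134 from limma). The classic members Fos, Jun, Egr1 and Myc had differences of -0.33, -0.25, -0.25 and -0.12 and were not called. Cyr61, Ctgf and Srf, which respond to actin dynamics, had 0.079, -0.032 and 0.065.

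Erk feedback inhibitors fell in 3 of 10 cases, with a median of -0.46. Spry2, a Sprouty inhibitor of receptor tyrosine kinase signalling, read 1189 to 1892 (median 1480) in the 7 libraries at 7 to 10 h and 799 to 1005 (median 878) in the 6 at 11 to 14 h of Cycle 1 and 1248, 1171, 938 and 837 from 7 to 10 h and 802, 717, 714 and 591 from 11 to 14 h in Cycle 2, apart in both, and fell by 0.62 ± 0.10 (SE, adjusted p = 0.000177 from limma). Spred1 and the phosphatase gene Dusp4 also fell, with -0.54 and -0.51. Spry4, Dusp5 and Dusp6 had -0.49, -0.46 and -0.35, under the minimum of 0.5, and with median ratio rescaling 6 of the 10 fell. Without the 7 h library of Cycle 2, 1 of the 10 fell, and without the 11 h or the 11.5 h library of Cycle 1 or the 10 h library of Cycle 2, 5 did. Spry1 and Spred3 had differences of 0.33 and 0.33, above 0.

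Cytokine and prostaglandin genes fell most widely, 14 of 23 with none higher and a median of -0.62. The fallers included Il33, the interleukin 6 family genes Il6, Il11 and Lif, the chemokine genes Cxcl1, Cxcl2, Cxcl10, Ccl2, Ccl5 and Ccl20, the growth factor genes Csf2, Vegfa and Tnfsf11, and Ptges, the prostaglandin E synthase. Mean values of the 14 ran from 2.18, near the floor, to 2138, and 8 of the 14 had windows apart in both Cycles. Il11, whose promoter is shown above, read 2184 to 3524 (median 2956) in the 7 libraries at 7 to 10 h and 899 to 1627 (median 1245) in the 6 at 11 to 14 h of Cycle 1 and 4901, 3932, 2657 and 2046 from 7 to 10 h and 1412, 1094, 902 and 728 from 11 to 14 h in Cycle 2. Il6 read 61.5 to 136 (median 78.9) in the 7 libraries at 7 to 10 h and 27.4 to 46.0 (median 34.3) in the 6 at 11 to 14 h of Cycle 1 and 375, 368, 263 and 202 from 7 to 10 h and 172, 115, 97.2 and 94.4 from 11 to 14 h in Cycle 2. Neither gene's windows overlapped in a Cycle, though Il6 stood higher in Cycle 2 throughout. Il11 fell by 1.41 ± 0.17 (SE, adjusted p = 5.96e-05 from limma) and Il6 by 1.25 ± 0.16 (SE, adjusted p = 9.36e-05). Tested in Cycle 1 alone 13 of the 23 fell, where 824 of all genes did (5.18%), and in Cycle 2 alone 8 fell, where 273 of all genes did (1.72%). Cxcl2 had -1.63 ± 0.32, the largest fall of the list after Il33. Csf1 had the only difference above 0.2, 0.25. Of the 10 macrophage markers, 1 fell, C1qa with -0.67 ± 0.19, all 10 had differences below 0, and their summed values, given above, overlapped between the windows in both Cycles. Their part in the fall of the cytokine genes was not tested.

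Proteases and their inhibitors fell in 6 of 19 cases (31.6%, against 4.6% of all genes), and 1 rose (5.26%, near the 4.59% of all genes). Serpinb2, plasminogen activator inhibitor 2, read 7929 to 10050 (median 8146) in the 7 libraries at 7 to 10 h and 2303 to 6458 (median 3742) in the 6 at 11 to 14 h of Cycle 1 and 8667, 8889, 6925 and 5639 from 7 to 10 h and 4743, 3649, 2553 and 2016 from 11 to 14 h in Cycle 2, apart in both, and fell by 1.22 ± 0.19 (SE, adjusted p = 0.000173 from limma). Mmp10, the stromelysin whose promoter is printed, and Plat, tissue plasminogen activator, fell by 1.02 ± 0.14 and 0.97 ± 0.14. Adamts5, an aggrecanase, rose by 0.89 ± 0.13, opposite to its relative Adamts4 with -0.77 ± 0.13. Of 24 collagen and matrix genes 3 fell (12.5%, against 4.6% of all genes), with a median of -0.17 over the list. Eln (elastin) fell by 0.87 ± 0.12, Lum by 0.63 ± 0.10 and Col3a1 by 0.61 ± 0.093. Lum and Col3a1 are also fibroblast markers, of which 3 of 14 fell. A further marker, S100a4, rose by 0.52 ± 0.10, a call that was lost without the 13, 13.5 or 14 h library of Cycle 1 or the 7, 13 or 14 h library of Cycle 2. The part of cell makeup in these values was not tested.

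Metabolic lists moved less. Of 33 sterol and fatty acid genes 4 fell (12.1%, against 4.6% of all genes), and the median was -0.14. Cyp51, lanosterol demethylase, read 1046 to 1664 (median 1315) in the 7 libraries at 7 to 10 h and 697 to 860.5 (median 722) in the 6 at 11 to 14 h of Cycle 1 and 1122, 1110, 868 and 708 from 7 to 10 h and 629.8, 677, 622 and 655 from 11 to 14 h in Cycle 2, apart in both, and fell by 0.66 ± 0.10 (SE, adjusted p = 0.00017 from limma). Tm7sf2, Insig1 and Sc4mol fell by 0.65, 0.64 and 0.58, and with median ratio rescaling 8 of the list fell. Of 20 glycolysis and hypoxia genes 2 fell (10%, against 4.6% of all genes). They were Pdk1 with -0.78 ± 0.15 and Bnip3 with -0.62 ± 0.16, both known as hypoxia responsive. The glycolytic enzyme genes Pgk1, Ldha and Aldoa had differences between -0.032 and -0.013. Of 20 interferon response genes 5 fell, led by Rsad2 with -1.00 ± 0.28 (SE, adjusted p = 0.0104 from limma) and Irf7 with -0.71 ± 0.15, at mean values of 14.6 to 101 for the 5. Without the 7 h or the 13.5 h library of Cycle 1, 3 of the list fell.

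Some lists held no call. Of 32 ribosome biogenesis genes measured, none was called and the differences ran from -0.15 to 0.22, with a median of 0.050. The 17 p53 targets ran from -0.49 to 0.35 and the 25 Atf4 and ER stress genes from -0.46 to 0.24, with none called in limma. At an adjusted p under 0.05 without the minimum size, 11 of the ribosome genes were above 0 and none below. In the p53 list 5 were above and 3 below. In the stress list 8 were above and 8 below. Among 20 quiescence and FoxO target genes 1 fell (5%), near the 4.6% of all genes. It was Igf1, insulin-like growth factor 1, which fell by 0.62 ± 0.086. Without the 11 h library of Cycle 1, 3 of this list fell, and without the 11.5 h library of Cycle 1 or the 10 h or 11 h library of Cycle 2, 2 did.

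Actin and contractile genes rose in 5 of 16 cases with none lower, and all 16 differences were above 0, with a median of 0.35. The 5 risers were Cnn1 (calponin), Myl9 (a myosin light chain), Actg2 and Acta2 (smooth muscle actins) and Tpm2 (a tropomyosin). The 11 members not called had differences of 0.037 to 0.467. Myl9 read 2463 to 3299 (median 2782) in the 7 libraries at 7 to 10 h and 3904 to 8053 (median 5742) in the 6 at 11 to 14 h of Cycle 1 and 3553, 3933, 4551 and 5339 from 7 to 10 h and 5490, 6588, 7598 and 8670 from 11 to 14 h in Cycle 2. Its windows were apart in both Cycles, it climbed at each hour of Cycle 2, and it rose by 0.83 ± 0.13 (SE, adjusted p = 0.000201 from limma). Cnn1 rose by 0.96 ± 0.16, Actg2 by 0.77 ± 0.14, Acta2 by 0.74 ± 0.12 and Tpm2 by 0.61 ± 0.12. The cytoplasmic actin genes Actb and Actg1 had 0.32 and 0.037. The summed value of 6 skeletal muscle markers was 895 to 1053 at 7 to 10 h and 1003 to 1419 at 11 to 14 h in Cycle 1, and 928 to 1051 and 1120 to 1351 in Cycle 2. Of these markers Myog rose, by 0.75 ± 0.25 at a mean value of 12.3, and it was not called without the 8, 12 or 13 h library of Cycle 2, while 2 of the markers rose without the 9, 10, 11 or 14 h library of Cycle 2. The part of muscle cells in the contractile rise was not tested.

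Of 19 clock genes 5 rose (26.3%, against 4.59% of all genes) and 1 fell (5.26%, near the 4.6% of all genes). The median was -0.015, and 3 rose in the filtered design with 1 difference per Cycle. The clock runs on Arntl and Clock, which drive Per, Cry, Nr1d and the D box factor genes Dbp and Tef, and Nr1d products repress Arntl in turn. Nr1d1 read 111 to 205 (median 136) in the 7 libraries at 7 to 10 h and 294 to 549.6 (median 433) in the 6 at 11 to 14 h of Cycle 1 and 234, 239, 269.6 and 288 from 7 to 10 h and 324, 422, 448 and 536 from 11 to 14 h in Cycle 2, apart in both, and rose by 1.10 ± 0.14 (SE, adjusted p = 9.36e-05 from limma). Dbp read 4.10 to 15.6 (median 9.86) in the 7 libraries at 7 to 10 h and 9.17 to 44.9 (median 29.3) in the 6 at 11 to 14 h of Cycle 1 and 19.1, 13.2, 14.6 and 18.1 from 7 to 10 h and 25.7, 26.0, 40.1 and 39.5 from 11 to 14 h in Cycle 2, with overlap in Cycle 1, and rose by 1.14 ± 0.26 (SE, adjusted p = 0.00264). Nr1d2, Tef and Npas2 rose by 1.00, 0.86 and 0.69. Cry1, the cryptochrome repressor gene, fell by 0.55 ± 0.086, with -0.29 in Cycle 1 and -0.81 in Cycle 2, and without the 7 h library of Cycle 2 it was not called. Arntl and Nfil3 had -0.45 and -0.46, under the minimum, and both were lower in every late library of each Cycle. Per2 had 0.71 in Cycle 1 and 0.056 in Cycle 2 and was not called.

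**Figure D4:**
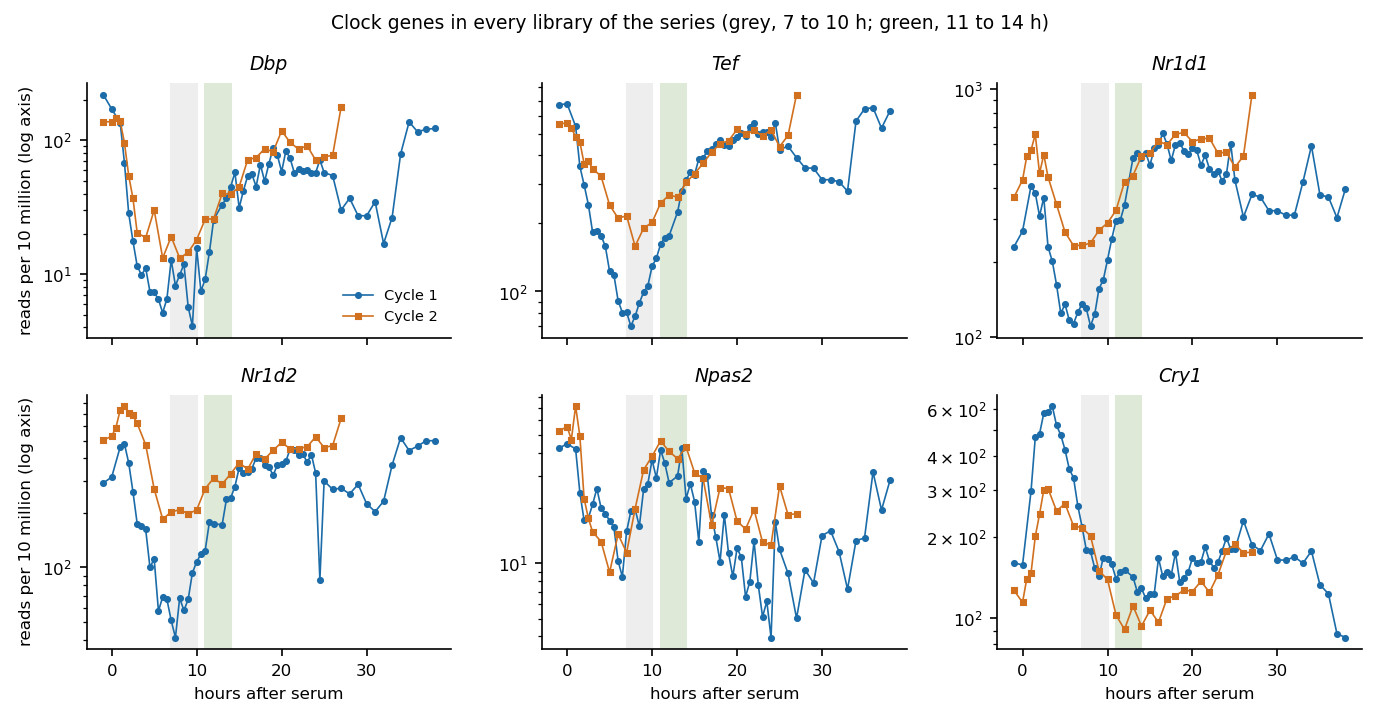
Value per library (log axis, reads scaled to 10000000 per library) against hours after serum for 6 clock genes in Cycle 1 and Cycle 2. Nr1d1, Nr1d2 and Tef lie higher at 11 to 14 h than at 7 to 10 h in every library of both Cycles, and Cry1 lies lower in every library of Cycle 2.

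The hours outside both windows show where these changes were headed, with libraries that the test did not use. The mean at 15 to 18 h was above that at 11 to 14 h in both Cycles for 549 of the 730 risers (75.2%), against 29.6% of all genes, and the mean at 19 to 23 h for 506 (69.3%), against 34.5%. Of the 731 fallers, 523 were lower again at 15 to 18 h (71.5%, against 29.6% of all genes) and 576 at 19 to 23 h (78.8%, against 39.8%). Both comparisons share the 11 to 14 h libraries with the test, so that a gene's chance deviation there enters them. The 4 to 6 h libraries share only the 7 to 10 h side, and 445 of the risers were lower there than at 7 to 10 h in both Cycles (61.0%, against 42.3% of all genes), while 506 of the fallers were higher (69.2%, against 29.8%).

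The lists parted after 14 h. The 22 fork genes that rose had a median against 7 to 10 h of 0.98, 1.19 and 1.04 in Cycle 1 at 11 to 14, 15 to 18 and 19 to 23 h, and of 0.58, 0.81 and 0.78 in Cycle 2. The 18 licensing genes that rose had 1.07, 1.38 and 1.10 in Cycle 1 and 0.61, 0.94 and 0.87 in Cycle 2. The 24 risers of G2 and mitosis went on climbing, with 1.27, 2.66 and 3.14 in Cycle 1 and 0.21, 0.57 and 1.10 in Cycle 2. All 24 were higher at 15 to 18 h and again at 19 to 23 h than at 11 to 14 h in both Cycles. The 5 contractile genes rose further, to 2.02 in Cycle 1 and 1.61 in Cycle 2 at 19 to 23 h. The 14 cytokine genes that fell stood at -1.02, -1.42 and -1.36 in Cycle 1 and -0.95, -1.23 and -1.48 in Cycle 2. In the starved libraries, 508 of the 730 risers were higher before serum than at 7 to 10 h in both Cycles (69.6%), against 48.7% of all genes. That comparison shares the 7 to 10 h libraries with the test, so a chance deviation there raises the share. It held for 4 of the 18 licensing risers, 7 of the 22 fork risers and 23 of the 24 risers of G2 and mitosis.

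**Figure D5:**
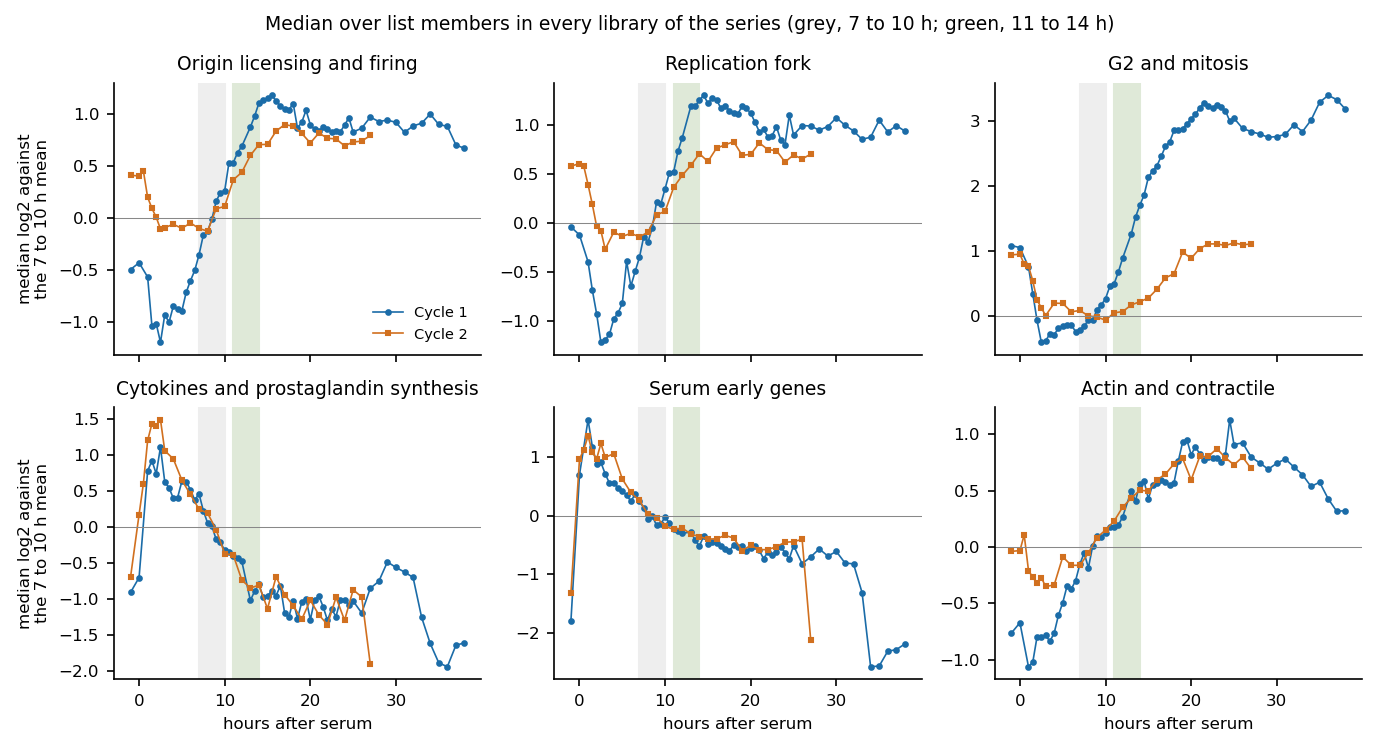
Median over a list's measured members of the log2 difference from the mean at 7 to 10 h of the same Cycle, against hours after serum, for 6 gene lists, with Cycle 1 and Cycle 2 as lines and both windows shaded. The licensing and fork lists change less after 14 h than the G2 and mitosis list, which rises to 21.5 h in Cycle 1 and, to a lower level, to 22 h in Cycle 2 before it levels off.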

How the data were processed

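Polyadenylated RNA was sequenced, and the reads were aligned by the authors with STAR to mm9 and counted on exons of both strands with HOMER, so that overlapping antisense genes cannot be told apart. CASAVA was used to separate the libraries, and tool versions are not given in the sources used here. The deposited values are a normalised signal, reads per gene scaled to 10000000 per library, in 96 columns of which 1 was not used, and every gene listed reaches at least 3.97 in some library. Whole reads were recovered within 0.01 for 99.9 to 100% of the values of 12604 genes with single-transcript values, and the other 3291 are averages over transcripts. The test was limma 3.58.1 (R 4.3.3) on log2(value + 1), with 4 group means and trend and robust off, and edgeR 4.0.16 was run on whole reads. Tests were checked on simulated counts without drift or dependence between hours, so that check does not cover the use of hours as repeats. Figures and letter searches used Python 3.11.15, pandas 2.3.3 and matplotlib 3.10.9. Named are the 12 largest rises and falls with a mean of at least 50 and windows apart in both Cycles, members of the gene lists with at least the 2 largest calls per direction, and the 3 genes with the smallest p between Cycles. The genes, lists and promoters were chosen with earlier results of these data known. Gene coordinates are those of NCBIM37. Alternatives covered the pseudocount, filters, scaling, windows, tools, the Cycles and each library.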

Additional observations from a re-analysis of the deposited data

Results flagged for a closer look

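Of 96 groups of values examined for the named genes, 3 had a library far from the others by Dixon's criterion, which chance meets in about 1 group in 20. Plxnc1 read 18.3 at 7.5 h of Cycle 1, where the other 6 libraries of the window read 34.0 to 49.3. It also read 49.0 at 8 h of Cycle 2, against 64.8 to 68.2 in the other 3. Areg read 12.0 at 14 h of Cycle 2, against 24.3 to 27.0 in the other 3. No cause was tested.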

How the results depend on the processing

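The main counts were 730 genes higher, 731 lower and 0 that differed between the Cycles. No alternative reversed a named gene. Leaving out each library in turn gave 641 to 806 higher and 600 to 801 lower, and 0 to 52 that differed between the Cycles, with 52 without the 11 h library of Cycle 1, 1 without the 11.5 h library of Cycle 1 and 0 without each of the others. The 24 named rises and falls kept their call in all 504 of these refits. A pseudocount of 10 gave 433 lower, and 514 higher. A mean value of at least 100 gave 381 and 260 among 9011 genes. The difference of Cycle 2 alone, tested within the joint fit, gave 212 and 273, with 10 of the 24 named genes no longer called. Without a filter, the design with 1 difference per Cycle and that with the mean of both Cycles at each hour each gave 0 and 0. With 1 difference per Cycle 757 and 904 had an unadjusted p under 0.05. With the mean of both Cycles at each hour 791 and 817 did, with a smallest adjusted p of 0.0535. Comparing 7 to 9 h with 12 to 14 h gave 1102 higher, 1086 lower and 106 that differed between the Cycles, and edgeR gave 28 that did. Added after the data were seen, a minimum difference of 1 gave 109 and 170, no minimum gave 3016 and 1900, filtered means of both Cycles at each hour gave 594 and 472, and the filtered design with 1 difference per Cycle gave 484 and 503, with 8 of the 24 named genes no longer called. Without the 2 libraries of lowest depth 652 were higher and 619 lower. No paired analysis was possible because the labels give the windows no shared replicate numbers, and the Cycle is already part of the test. The 2 time courses and the depth of single libraries limit what these counts can carry.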

Other observations

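Several genes outside the lists were noticed after their values were seen, and all adjusted p-values here are from limma over all genes. Some belong to the Egf and interleukin 1 pathways. Errfi1, an inhibitor of the Egf receptor, read 5415 to 9397 (median 7054) at 7 to 10 h and 2831 to 5047 (median 3717) at 11 to 14 h in Cycle 1, and fell by 0.83 ± 0.14 (SE, adjusted p = 0.000276), with windows apart in both Cycles. Epgn and Tgfa, further ligands of that receptor, fell by 1.06 ± 0.31 and 0.60 ± 0.18, with overlap, while Egf and the receptor gene Egfr were not called, with 0.14 and -0.40. Il1rl1, which encodes the receptor for Il33, read 31202 to 42600 against 13767 to 29701 in Cycle 1 and fell by 0.66 ± 0.13, apart in both Cycles. Il1a fell by 1.40 ± 0.24, apart in both Cycles. Il1b fell by 1.11 ± 0.39 and was almost confined to Cycle 2, where it read 222.9, 191, 104 and 64.9 from 7 to 10 h and 70.3, 48.7, 38.6 and 16.3 from 11 to 14 h, against at most 6.38 in any library of Cycle 1.

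Others act in adhesion, growth factor signalling or the matrix. Itgb3, the beta chain of a vitronectin receptor, read 1553 to 2691 against 522 to 1204 in Cycle 1 and 3059, 2585, 1895 and 1409 against 1243, 871, 697 and 590.2 in Cycle 2, a fall of 1.39 ± 0.19 (adjusted p = 0.000107). Igfbp3, a binding protein of insulin-like growth factors, fell by 1.02 ± 0.14 and Wnt2 by 1.14 ± 0.16, both apart in both Cycles. Itga2 fell by 1.50 ± 0.34 and Fgf18 by 1.35 ± 0.34, with overlap. Kera, keratocan of the matrix, fell by 1.28 ± 0.23, with overlap in Cycle 2. It read at least 32.6 in every library of Cycle 1 and at most 21.0 in every library of Cycle 2.

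Rises with windows apart in both Cycles included Rgs4, a regulator of G protein signalling, with 1.10 ± 0.13, Mylk, the myosin light chain kinase, with 1.05 ± 0.14, Jph2, a junctophilin, with 1.06 ± 0.13, and Ptprz1, a receptor phosphatase, with 1.01 ± 0.14. Mylk read 128 to 267 against 326 to 478 in Cycle 1. Among cell cycle genes outside the lists, Esco2, the cohesin acetyltransferase of S phase, rose by 1.28 ± 0.17, and Mybl1, a relative of Mybl2, by 0.98 ± 0.31 with overlap.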
